A study of Mus musculus with 2 samples.

Results

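Mitochondria carry their own ribosome, which translates the few proteins encoded by the mitochondrial genome, all of them core parts of the respiratory chain and the ATP synthase. Its ribosomal RNAs come from the mitochondrial genome, but every one of its proteins is encoded in the nucleus, made on cytosolic ribosomes and imported. Some of these proteins descend from the bacterial ribosome and others were added in the mitochondrial lineage. Genes of the mouse annotation whose symbol is Mrpl or Mrps followed by a number and at most one of the letters a to c were taken as members, which gave 77 of 27998 genes. By background knowledge, 50 of them belong to the large subunit (30 with a bacterial homolog and 20 specific to mitochondria) and 26 to the small subunit (16 and 10). Mrps30 and Mrps18a are counted in the large subunit, where structures place them despite their symbols. Mrps36 is left out of both, since it is now known as a part of the oxoglutarate dehydrogenase complex. A UMI, the tag that marks one captured mRNA molecule, was seen for all 77 members in the cells used here.

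The cells came from the metaphyseal bone below the femoral growth plate of 1-month-old Gli1-CreERT2;Ai9 mice on a mixed background. Both groups carried the same alleles, with no group lacking Cre, and received tamoxifen, so that cells with an active Gli1 promoter and their descendants carried tdTomato, and were then injected daily for 3 days with vehicle or with 400 ng/g body weight of teriparatide (Ctrl and PTH), a fragment of parathyroid hormone that is used to build bone. Sorting kept tdTomato-positive cells without CD31, CD45 and Ter119, and the sorted cells of each group gave 1 single-cell library of 3′ ends. Each condition thus rests on 1 library with cells of both sexes, no value below has a replicate, and all 95% intervals (exact Poisson for levels, conditional binomial for ratios) cover counting error only. Differences between the libraries cannot be told apart from differences between their mice or preparations.

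After the limits on genes and mitochondrial UMIs, 549 of 1286 vehicle and 1217 of 2142 teriparatide barcodes remained, with a median of 10875 and 14556 UMIs, and 2 barcodes occurred in both libraries. Cells were gated by marker genes into chondrocyte-like osteoprogenitors (COP-like, 69 vehicle and 277 teriparatide cells), preosteoblasts (preOB-like, 42 and 50), osteoblasts (OB-like, 120 and 139) and marrow adipogenic lineage progenitors (MALP-like, 166 and 89). Blood cells had passed the sort as well and formed erythroid-like (47 and 162), neutrophil-like (26 and 236) and monocyte-like classes (22 and 129). The genes most enriched in each class included markers of that class and of no other, which gating by these markers favors. In the COP-like cells the enriched genes were led by Col10a1, a gene of hypertrophic chondrocytes. It held 1% or more of the UMIs in only 5 of the 69 vehicle and 17 of the 277 teriparatide cells of this class. By Y-linked genes and Xist, the COP-like cells with a call were 85.9% male with vehicle and 90.5% male with teriparatide, whereas no other mesenchymal class was above 45.9% male with vehicle or below 86.8% male with teriparatide.

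The members lie on 17 chromosomes, with 10 of them on chromosome 11 as the largest number. In GENCODE vM21 (GRCm38), 33 of the 77 (42.9%) start within 1000 bases of the start of a protein-coding gene on the opposite strand, against 10.9% of 21554 protein-coding genes. Mrps11 and Mrpl46 are such neighbors of each other, Mrps12 starts 172 bases from Sars2, which encodes the mitochondrial seryl-tRNA synthetase, and Mrpl43 lies beside Twnk, the mitochondrial DNA helicase. RefSeq promoter sequences (GRCm38.p6, 250 bases before to 50 bases after the start) were at hand for 68 members. On either strand, the letters GCGCANGCG of an NRF1 motif were found in 16 of these (23.5%), against 9.38% of 17999 genes. CCGGAAGT, the core bound by ETS factors, was present in 17.6% against 5.50%, AAGATGGCG of a YY1 motif in 11.8% against 2.11%, and GGGGCGGGG of an Sp1 motif in 19.1% against 16.7%. The members' promoters held a median of 21 CpG dinucleotides against 12 over all genes, and TATAAA, searched on the strand of the gene 50 to 10 bases before the start, was found in 0 of 68 members and in 3.23% of all genes. A match is a match of letters and not a measured site.

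The stretches before the first annotated start are shown for 3 members that return below, for the most class-dependent member (Mrps6), for a member higher in COP-like than in the other mesenchymal cells of both libraries (Mrpl17) and for a member higher in the teriparatide library of every mesenchymal class (Mrps21). Each has 150 bases, 5′ to 3′ on the strand of the gene, with capitals for a match to the Sp1 motif in Mrps6 and to the NRF1 motif in the others. They cover chr16:92058120-92058269 (plus strand), chr7:105811100-105811249 (minus) and chr3:95871520-95871669 (minus).
Mrps6: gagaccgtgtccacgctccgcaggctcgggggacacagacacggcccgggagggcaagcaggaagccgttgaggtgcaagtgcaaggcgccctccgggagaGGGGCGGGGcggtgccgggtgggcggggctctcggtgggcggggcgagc
Mrpl17: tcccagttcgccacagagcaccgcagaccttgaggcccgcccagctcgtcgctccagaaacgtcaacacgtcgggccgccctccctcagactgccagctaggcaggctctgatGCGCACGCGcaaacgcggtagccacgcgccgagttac
Mrps21: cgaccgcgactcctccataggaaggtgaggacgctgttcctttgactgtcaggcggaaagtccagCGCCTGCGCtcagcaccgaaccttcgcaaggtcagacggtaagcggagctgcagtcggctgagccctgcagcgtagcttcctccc

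Expression is given in CPM, the UMIs of a gene in all cells of one class and library per 1000000 UMIs of the same cells. With 3′ counting, each captured mRNA contributes about 1 tag whatever its length. Levels of different members can be set side by side as far as capture and assignment are alike between genes, which was not tested. The mean CPM over the 7 classes and both libraries had a median of 41.8 over the members and spanned a 165-fold range. The 6 members above 100 CPM held 21.8% of the summed level, and 20 members held 51.0%. Mrpl33 stood highest, at 203 CPM, followed by Mrpl52 (168), Mrpl20 (129), Mrps21 (114), Mrps14 (113) and Mrpl30 (105), of which Mrpl52 alone has no bacterial homolog. Below 10 CPM were Mrpl47 (8.07), Mrps2 (5.74), Mrps27 (5.54) and Mrpl53 (1.23), and Mrpl53 alone sets the low end of the 165-fold range. Its annotated end is also that of Gm42688, a counted gene of the same strand. The level of Mrpl53 may therefore be undercounted, which was not tested. The proteins of the mitochondrial ribosome stand in it as single copies for the most part, the stalk protein Mrpl12 being the known exception, and Mrpl12 averaged 59.5 CPM. The members that did not follow their symbol were unremarkable in level, with 19.0 CPM for Mrps30, 41.8 for Mrps18a and 65.0 for Mrps36.

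The order of the members was much the same in the mesenchymal classes. Across the 77 members, Spearman's rho between the libraries was 0.96 in COP-like, 0.91 in preOB-like, 0.96 in OB-like and 0.96 in MALP-like cells. Between different mesenchymal classes of 1 library it ran from 0.86 to 0.94, and between COP-like and neutrophil-like cells it was 0.57 with vehicle and 0.74 with teriparatide. These are descriptions across genes, which are not independent, and the shallower classes carry more counting error.

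Summed over the 77 members, the mitochondrial ribosomal protein genes took up between 0.22% and 0.52% of all UMIs. In the vehicle library the sum was 5171 CPM (4980 to 5368) in preOB-like, 5104 CPM (5003 to 5207) in MALP-like, 4187 CPM (4095 to 4281) in COP-like and 3517 CPM (3441 to 3593) in OB-like cells. The teriparatide library gave 4202 CPM (4059 to 4350) in preOB-like, 4962 CPM (4837 to 5089) in MALP-like, 3608 CPM (3567 to 3649) in COP-like and 2989 CPM (2924 to 3054) in OB-like cells. OB-like cells were the lowest mesenchymal class in both libraries, while the intervals of preOB-like and MALP-like cells overlapped in the vehicle library. The sum is a share of all UMIs, and in OB-like cells the 50 most abundant genes of the class alone held 48.5% and 50.6% of the UMIs. Without the genes of the mitochondrial genome and the 50 genes highest in the mesenchymal cells, OB-like cells reached 6548 and 5800 CPM, against 5767 and 5392 in COP-like, 6668 and 5756 in preOB-like and 5920 and 5932 in MALP-like cells, so that the order of the classes depended on the scale.

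Between classes, members are set beside all genes with at least 50 UMIs in a pair of classes. COP-like cells were above OB-like cells for 49 of 71 members with vehicle (69.0% of all genes were) and for 59 of 76 with teriparatide (67.5%), with median log2 ratios of 0.30 and 0.37, against 0.38 over all genes in both. They were above preOB-like cells for 11 of 64 members with vehicle, against 42.0% of all genes (medians -0.28 and -0.14), and for 19 of 76 with teriparatide, against 36.1% (-0.29 and -0.28). Above MALP-like cells were 18 of 74 members with vehicle (all genes 33.0%) and 10 of 76 with teriparatide (31.7%). The medians of this pair were -0.37 and -0.51, against -0.36 and -0.44 over all genes. PreOB-like cells exceeded OB-like cells for 61 of 65 members with vehicle (76.6%) and 58 of 65 with teriparatide (79.7%), with medians of 0.60 and 0.53, against 0.54 and 0.55 over all genes. They exceeded MALP-like cells for 40 of 70 members with vehicle, against 40.4% of all genes (medians 0.03 and -0.15), and for 19 of 60 with teriparatide, against 35.7% (-0.20 in each). OB-like cells exceeded MALP-like cells for only 8 of 73 members with vehicle (19.7%) and 3 of 70 with teriparatide (18.7%), with medians of -0.57 and -0.70 that were less negative than those of all genes (-0.77 and -0.78).

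Among the blood cells, the sum was lowest in neutrophil-like cells, where it was 2594 CPM (2418 to 2779) for vehicle and 2196 CPM (2150.1 to 2243) for teriparatide. Erythroid-like cells had 3094 and 2880 CPM, and monocyte-like cells 4156 CPM (3857 to 4472) and 4765 CPM (4662 to 4870.2). The erythroid-like value was an average over unequal cells. Where hemoglobin genes held under 20% of the UMIs, members had 8011 CPM (7525 to 8521) in 18 vehicle cells and 7699 CPM (7462 to 7942) in 23 teriparatide cells, above every other class. With 20 to 60% hemoglobin the sum was 3350 and 2447 CPM, and above 60% it was 349 and 326 CPM. Counted without the hemoglobin UMIs, the 3 steps were 8514, 5165 and 1823 CPM for vehicle and 8170, 4178 and 1572 CPM for teriparatide. On either scale the level was lower at each step in both libraries, and cytosolic ribosomal protein genes were lower along the same steps, with 297673, 190691 and 51474 CPM for vehicle on that scale.

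**Figure D1:**
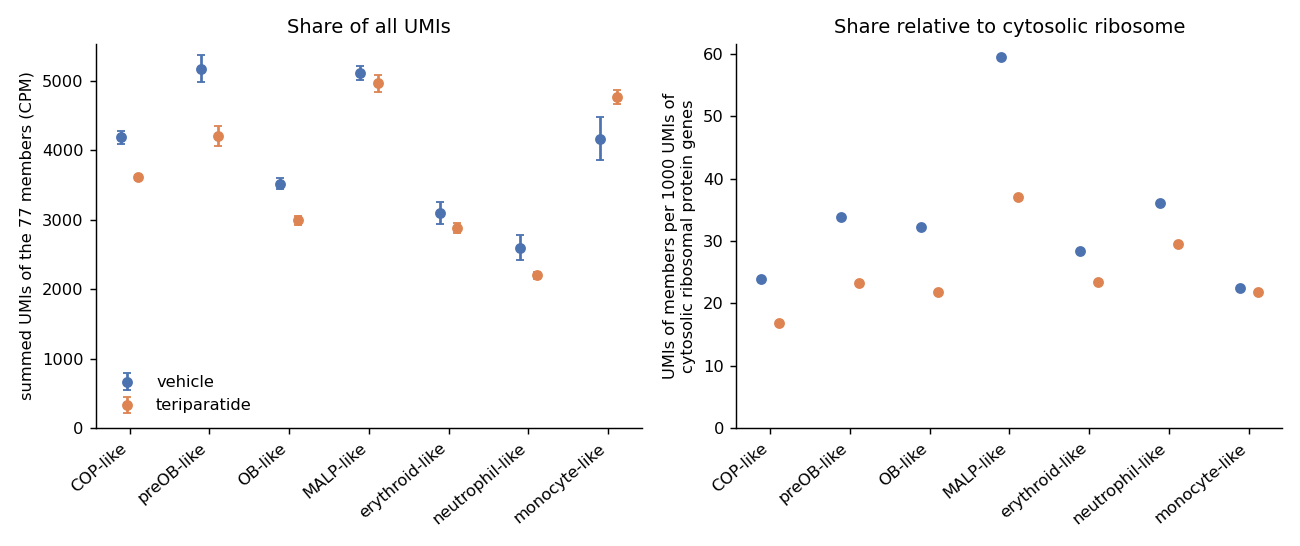
The left panel shows the summed level of the 77 members in CPM by class, for the vehicle (blue) and teriparatide (orange) library, with exact Poisson intervals as bars; the right panel shows UMIs of members per 1000 UMIs of cytosolic ribosomal protein genes. OB-like cells were the lowest mesenchymal class on the left (3517 and 2989 CPM), and MALP-like cells the highest on the right (59.4 and 37.0).

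One member stood apart from the rest in where it was expressed. Mrps6 (ENSMUSG00000039680, chr16:92058270-92112227), a small-subunit protein with a bacterial homolog, had 318 CPM in vehicle MALP-like cells and 419 CPM in teriparatide MALP-like cells. COP-like cells had 88.9 and 104 CPM, preOB-like cells 45.0 and 41.6 CPM, and OB-like cells 7.18 and 11.7 CPM. Every library showed the same order of the 4 classes. MALP-like cells exceeded OB-like cells 44.2-fold with vehicle (log2 ratio 5.47, interval 4.78 to 6.26) and 35.8-fold with teriparatide (5.16, 4.65 to 5.73). For the 75 and 74 members with at least 10 UMIs in their lowest mesenchymal class, the median fold between highest and lowest class was 1.82 in both libraries, and Mrps6 was the only one of them above 5-fold. Blood cells had little of it, at 6.04 and 4.73 CPM in erythroid-like and 11.6 and 14.1 CPM in monocyte-like cells. Neutrophil-like cells had 0 and 1.77 CPM, and 3 UMIs would make 9.63 CPM in those of the vehicle library. With vehicle, the OB-like value, on 17 UMIs, was thus close to that of erythroid-like cells, which rests on only 3 UMIs. With teriparatide it lay between the values of erythroid-like and monocyte-like cells.

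Among the basic transcripts of GENCODE vM21, Mrps6 is also the only member whose exons overlap those of another counted gene on the same strand. Slc5a3, which encodes a sodium-coupled transporter of myo-inositol, starts just after it, at position 92058322, and ends within it, at 92087473. Slc5a3 had 443 and 798 CPM in MALP-like, 107 and 168 CPM in COP-like, 18.8 and 29.9 CPM in preOB-like and 10.1 and 9.13 CPM in OB-like cells. The class order of Slc5a3 was that of Mrps6 in both libraries. Reads from shared exons could not be assigned to either gene, whereas their annotated 3′ ends lie apart. Outside these transcripts, Mrpl53 ends on the same base (83109939) as Gm42688, a counted gene of the same strand with 0 CPM in every class. Whether reads of Mrpl53 went unassigned there was not tested.

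**Figure D2:**
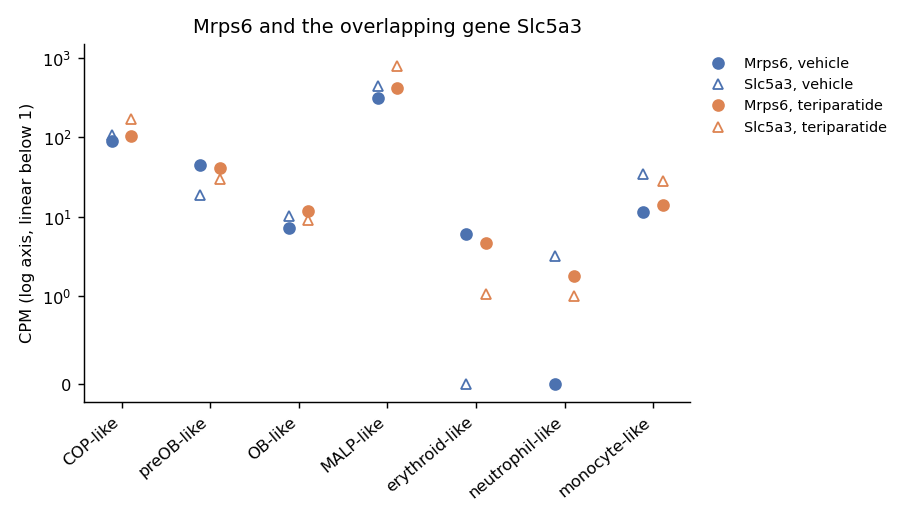
Levels of Mrps6 (filled circles) and of the overlapping gene Slc5a3 (open triangles) in CPM by class, in the vehicle (blue) and teriparatide (orange) library, on a log axis that is linear below 1. Both genes were highest in MALP-like cells (318 and 419 CPM of Mrps6) and near 10 CPM in OB-like cells.

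Among the other members, class differences were smaller. Mrpl17, a large-subunit protein near the exit of the peptide tunnel, had the largest excess in COP-like cells when members are ranked by the smaller of their 2 library values, with 238 CPM for vehicle and 158 CPM for teriparatide, against 89.4 to 146 CPM in the other mesenchymal classes of both libraries. Its promoter is among those shown above with an NRF1 match. With teriparatide alone the excess of Mrpl45 was larger, with 35.9 CPM in COP-like and 13.9 to 19.5 CPM in the other mesenchymal cells, against 31.4 and 21.6 to 24.1 CPM with vehicle. Mrps2, the other member chosen by rule for COP-like cells, had only 14.9 and 6.80 CPM there. Mrps11 was lowest in these cells, at 14.4 and 11.1 CPM. With vehicle it was highest in preOB-like cells, at 58.2 CPM, and with teriparatide it had 28.6 CPM there and 29.7 CPM in MALP-like cells. Mrps35 (37.5 and 44.2 CPM) and Mrpl19 (46.9 and 29.9 CPM) were highest in preOB-like cells of both libraries. In OB-like cells, relative to the other members, Mrps28 (97.6 and 82.9 CPM) and Mrpl54 (104 and 86.9 CPM) stood out, and in MALP-like cells Mrps27 (12.6 and 10.7 CPM) did, whereas Mrpl57 was lowest there (52.6 and 57.8 CPM).

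Some members departed from the rest in blood cells; these were picked after their values were seen. Mrpl52 had 12.8 CPM in vehicle and 14.9 CPM in teriparatide neutrophil-like cells, 10.9-fold and 15.7-fold below the COP-like cells of the same library. The vehicle value and its fold rest on few UMIs, since 3 UMIs make 9.63 CPM in vehicle neutrophil-like cells. In monocyte-like cells Mrpl52 had 169 and 226 CPM, about as much as in COP-like cells (140 and 234 CPM). Mrpl33 moved the other way, with 254 and 373 CPM in neutrophil-like and 343 and 654 CPM in monocyte-like cells, above the 122 and 163 CPM of COP-like cells. It had 44.3 and 74.6 CPM in erythroid-like cells. Mrps28 was low in neutrophil-like cells, at 6.42 and 9.12 CPM, with 2 UMIs behind the vehicle value. Mrpl18 was 2.02-fold and 1.96-fold and Mrps36 1.83-fold and 2.04-fold higher in erythroid-like than in COP-like cells.

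**Figure D3:**
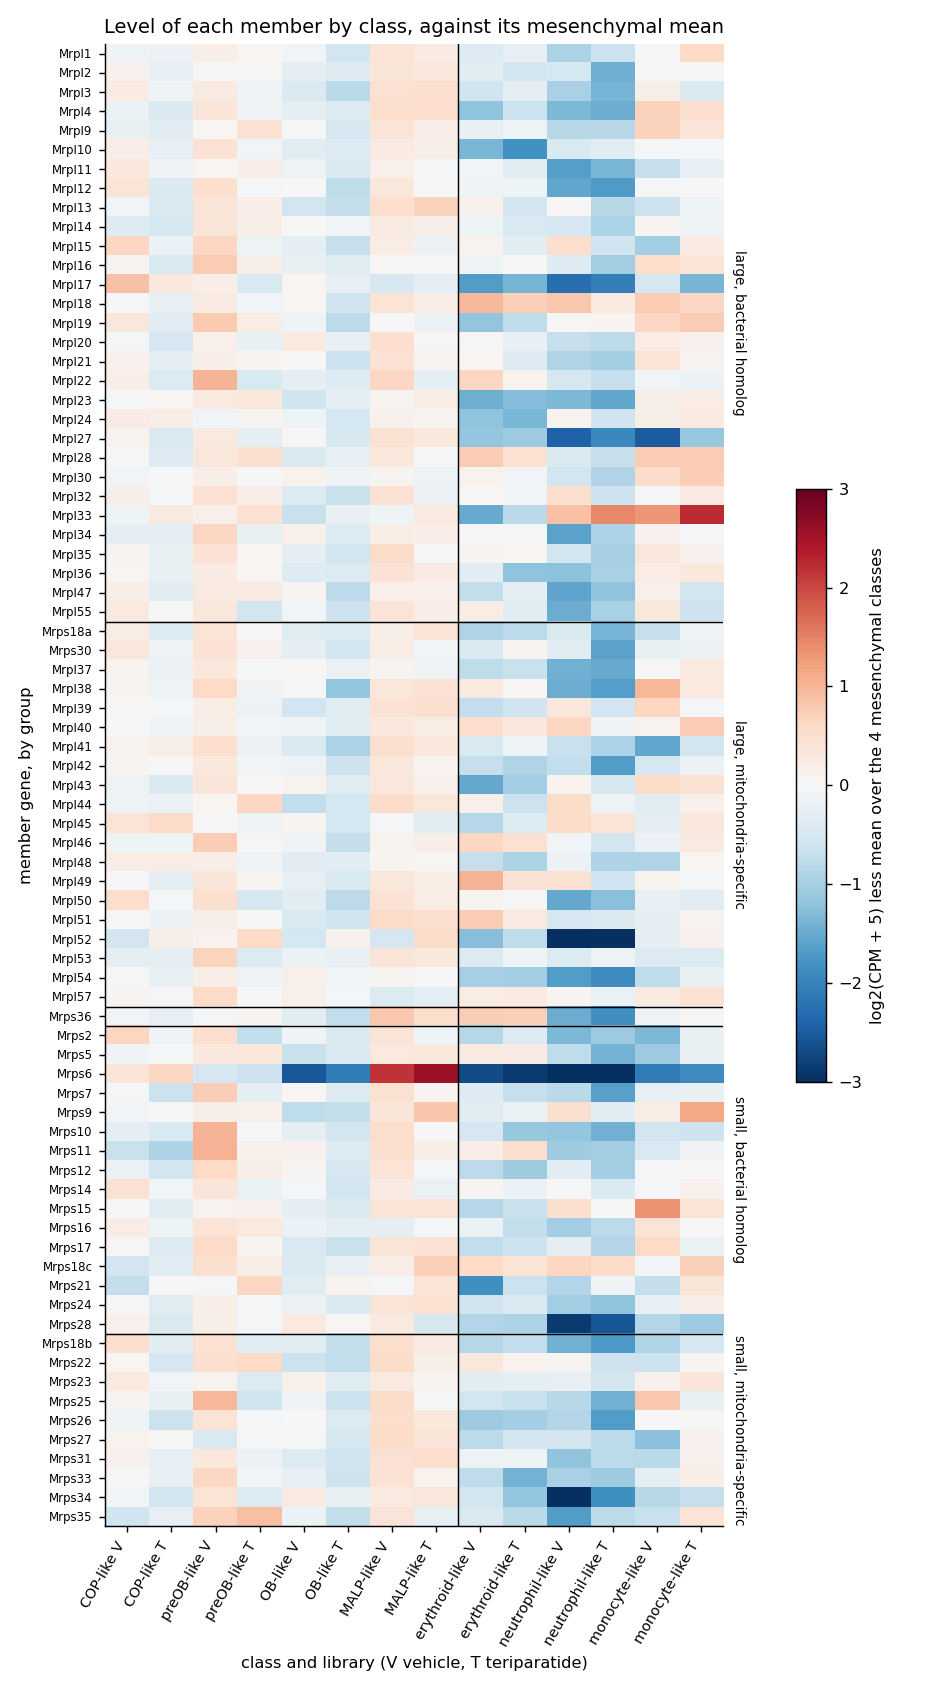
Each row is a member, grouped by subunit and origin, and each column a class in the vehicle (V) or teriparatide (T) library; color is log2(CPM + 5) less the member's mean over the 4 mesenchymal classes of both libraries, with the scale ending at -3 and 3. The row of Mrps6 is dark red in MALP-like cells and blue in OB-like and blood cells, Mrpl52 is dark blue in neutrophil-like cells, and Mrpl33 is red in neutrophil-like and monocyte-like cells.

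The second comparison set the teriparatide against the vehicle library within each class. The summed level was lower in the teriparatide library in COP-like cells (log2 ratio -0.22, interval -0.25 to -0.18), preOB-like cells (-0.30, -0.37 to -0.23) and OB-like cells (-0.23, -0.28 to -0.19). In MALP-like cells the interval included 0 (-0.04, -0.09 to 0.01). In blood cells the log2 ratio was -0.10 (-0.19 to -0.02) in erythroid-like, -0.24 (-0.34 to -0.13) in neutrophil-like and 0.20 (0.09 to 0.31) in monocyte-like cells. On the scale without the mitochondrial genome and the 50 highest genes, the ratios were -0.10 in COP-like, -0.21 in preOB-like, -0.17 in OB-like and 0.00 in MALP-like cells.

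Per gene, ratios were formed for members with at least 50 UMIs in a class over both libraries, which left 76 members in COP-like, 49 in preOB-like, 67 in OB-like and 72 in MALP-like cells. Their median log2 ratio was -0.35, -0.32, -0.32 and -0.19 in this order. Most genes were lower in the teriparatide library on this scale, with medians over all genes tested of -0.20, -0.16, -0.12 and -0.07, and the members differed from these by -0.15, -0.17, -0.20 and -0.12. With cells thinned to 3000 UMIs these differences changed sign, to 0.051, 0.40, 0.043 and 0.0045, over the 26, 1, 12 and 28 members that still reached the minimum. A share of 35.5% of the members in COP-like, 28.6% in preOB-like, 19.4% in OB-like and 38.9% in MALP-like cells was above the median of all genes.

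In COP-like cells, 16 of 76 members were lower in the teriparatide library by at least 1.5-fold, against 16.7% of the 9301 genes tested, and 2 were higher by that fold, against 8.28%. In preOB-like cells, 13 of 49 were lower (19.2% of 3804 genes) and 1 higher (9.04%). OB-like cells had 16 of 67 lower (12.3% of 6548 genes) and 1 higher (7.01%). In MALP-like cells, 6 of 72 were lower (9.81% of 7224 genes) and 1 higher (7.71%). As shares of the members tested, the counts of lower members are 21.1%, 26.5%, 23.9% and 8.33%, which in MALP-like cells is about the share of all genes. No test of these shares against all genes was made.

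Among 48 members tested in all 4 mesenchymal classes, 25 were lower in the teriparatide library of every class and 5 were higher in every class. Of the 3501 genes tested in all 4 classes, 35.0% were lower and 10.3% higher in each, so that the 5 members (10.4%) are about the share of all genes. Relative to the median ratio of all genes, 17 of these 25 were lower and all 5 were higher in every class (all genes 21.9% and 18.7%), and on the scale without the mitochondrial genome and the 50 highest genes 21 and 5 were (27.5% and 14.3%). Mrpl12, the stalk protein that also binds the mitochondrial RNA polymerase, went from 87.8 to 47.5 CPM in COP-like cells (log2 ratio -0.89, -1.15 to -0.62) and from 65.1 to 36.9 CPM in OB-like cells (-0.82, -1.20 to -0.45). In preOB-like and MALP-like cells it went from 95.7 to 63.7 CPM and from 85.2 to 66.9 CPM, with intervals that included 0. The lowest ratios of COP-like cells belonged to Mrps2 (14.9 to 6.80 CPM, log2 ratio -1.13) and Mrps18b (37.8 to 19.6 CPM, -0.95). Those of preOB-like cells were Mrps25 (80.7 to 23.4 CPM, -1.78, -2.67 to -0.96) and Mrps10 (61.9 to 27.3 CPM, -1.18), on 61 and 54 UMIs in all. OB-like cells had Mrpl38 (25.8 to 9.13 CPM, -1.50) and Mrpl19 (22.8 to 12.4 CPM, -0.88) at this end, and MALP-like cells Mrpl22 (41.0 to 19.8 CPM, -1.05) and Mrps28 (95.7 to 55.4 CPM, -0.79).

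The 5 members that were higher in every mesenchymal class were Mrpl52, Mrps21, Mrpl33, Mrpl23 and Mrps5. Mrpl52 (ENSMUSG00000010406, chr14:54426909-54429756) had 140 CPM in vehicle and 234 CPM in teriparatide COP-like cells, 223 and 311 CPM in preOB-like, 142 and 227 CPM in OB-like and 145 and 305 CPM in MALP-like cells. Its log2 ratio was 0.74 (0.56 to 0.94), 0.48 (0.15 to 0.81), 0.68 (0.49 to 0.88) and 1.07 (0.84 to 1.30). Mrps21 (ENSMUSG00000054312, chr3:95862634-95871519) went from 75.6 to 128 CPM in COP-like cells (0.76, 0.51 to 1.03), from 126 to 200.4 CPM in preOB-like cells, from 97.6 to 138 CPM in OB-like and from 125 to 172 CPM in MALP-like cells. The intervals of both genes lay above 0 in all 4 classes. Mrpl33 was higher by 0.28 to 0.49 on the log2 scale. Mrpl23 was higher by 0.06 to 0.33 and Mrps5 by 0.03 to 0.26, so that both were close to 0 in some classes.

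**Figure D4:**
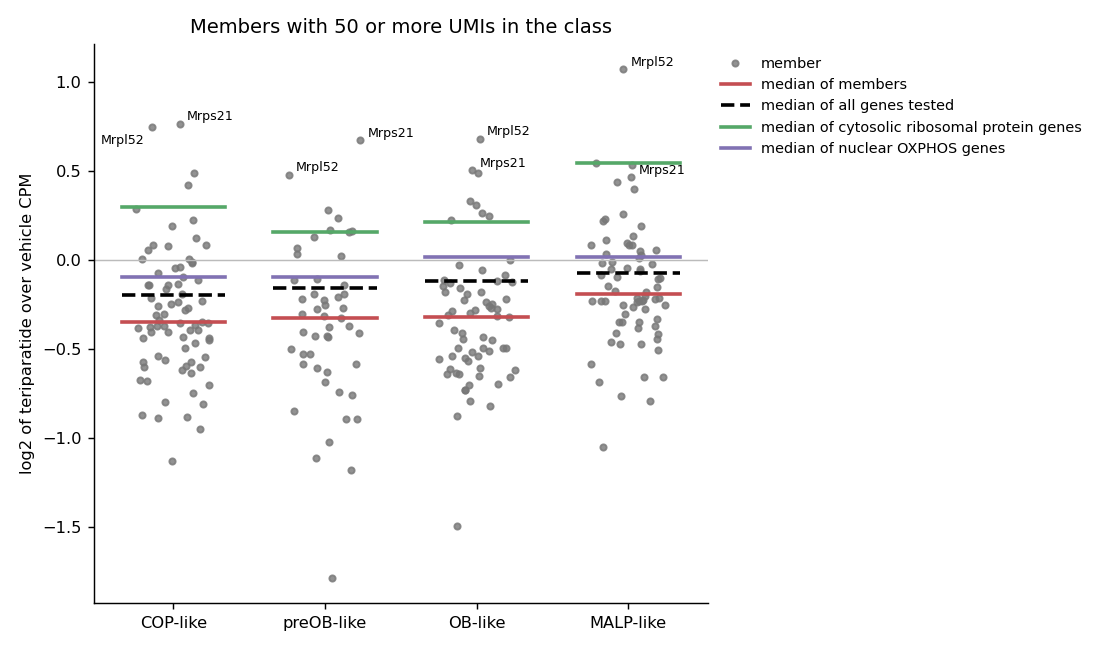
Points are members with at least 50 UMIs in the class, placed by the log2 ratio of teriparatide to vehicle CPM; lines give medians of the members (red), all genes tested (black, dashed), cytosolic ribosomal protein genes (green) and nuclear genes of oxidative phosphorylation (purple). The red line lies below the black one in each class (-0.35 against -0.20 in COP-like cells), and the highest point of each class is Mrpl52 or Mrps21.

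By group, the small-subunit members specific to mitochondria had the lowest median log2 ratios, at -0.49 in COP-like (10 members tested), -0.74 in preOB-like (5), -0.54 in OB-like (7) and -0.25 in MALP-like cells (9). Large-subunit members specific to mitochondria had -0.14, -0.37, -0.27 and -0.13, large-subunit members with a bacterial homolog -0.39, -0.25, -0.31 and -0.20, and small-subunit ones with a homolog -0.38, -0.30, -0.24 and 0.03. For whole subunits, the median log2 ratio was -0.30 for the large and -0.39 for the small subunit in COP-like, -0.32 and -0.43 in preOB-like, -0.31 and -0.42 in OB-like and -0.18 and -0.23 in MALP-like cells. Members with a bacterial homolog had -0.38 and those specific to mitochondria -0.26 in COP-like cells. In the other classes the mitochondria-specific members were the lower ones, with -0.27 and -0.42 in preOB-like, -0.31 and -0.43 in OB-like and -0.17 and -0.22 in MALP-like cells. The mean level per gene in vehicle COP-like cells was 55.9 CPM for the large and 51.3 CPM for the small subunit, and with teriparatide it was 48.9 and 42.8 CPM. MALP-like cells had the opposite order, with 61.7 and 73.3 CPM and, with teriparatide, 59.8 and 72.2 CPM. The small subunit's mean includes Mrps6, at 318 and 419 CPM, and with teriparatide the order of the means does not hold without it. Median levels per gene in MALP-like cells had this order too, at 55.5 and 63.1 CPM with vehicle and 45.9 and 53.7 CPM with teriparatide. PreOB-like cells had means of 66.5 and 68.6 CPM with vehicle and 55.3 and 52.7 CPM with teriparatide. The paralogs Mrps18a, Mrps18b and Mrps18c had log2 ratios of -0.70, -0.95 and 0.29 in COP-like cells, the last with an interval from -0.14 to 0.74. In MALP-like cells Mrps18c was higher in the teriparatide library, with 50.5 and 73.5 CPM (0.54, 0.11 to 0.97).

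Other genes of mitochondrial translation showed mixed directions, and fewer of them were covered outside COP-like cells. In COP-like cells, 33.1% of all genes tested were higher, with a median of -0.20. There, all 6 of 6 mitochondrial ribosomal proteins with other symbols were lower (median -0.24), among them Dap3 and Ptcd3 of the small subunit. Of these 6, 3 lay above the median of all genes. The 12 translation factors had a median of -0.26, with 3 higher, and 17 of 22 assembly factors had a median of -0.08, with 7 higher. Of 20 mitochondrial tRNA synthetases, 12 were tested in COP-like cells, with a median of -0.06 and 5 higher. In MALP-like cells, 6 of the 12 translation factors were tested, and 4 of them were higher (median 0.53), against 43.2% of all genes (median -0.07). The 9 assembly factors tested there had a median of -0.02, and the 6 proteins with other symbols one of -0.04. In OB-like cells, 1 of 4 translation factors tested was higher (median -0.30), against 38.6% of all genes (median -0.12).

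Genes of the cytosolic ribosome went in the other direction. Of 83, the 80 tested had a median log2 ratio of 0.30 in COP-like, 0.16 in preOB-like, 0.21 in OB-like and 0.54 in MALP-like cells, and 54, 53, 56 and 79 of them were higher. Of all genes tested, 33.1%, 38.5%, 38.6% and 43.2% were higher in this order. Nuclear genes of oxidative phosphorylation, whose complexes also hold the products of mitochondrial translation, had medians of -0.10, -0.10, 0.01 and 0.02. Genes of the mitochondrial genome had medians of 0.10, -0.14, 0.28 and 0.40, with 10 of 13, 4 of 12, 12 of 13 and 12 of 12 tested higher. The limit on mitochondrial UMIs per cell acts on these genes directly. Mitochondrial ribosomal protein UMIs per 1000 UMIs of cytosolic ribosomal protein genes went from 23.9 (vehicle) to 16.8 (teriparatide) in COP-like, from 33.9 to 23.3 in preOB-like, from 32.3 to 21.8 in OB-like and from 59.4 to 37.0 in MALP-like cells. Per 1000 UMIs of the oxidative phosphorylation genes they went from 302 to 249, from 288.5 to 233, from 259 to 199 and from 325 to 276. Neither ratio depends on the total of UMIs, and both were lower in the teriparatide library of each mesenchymal class. The log2 ratios of cytosolic ribosomal protein genes and of oxidative phosphorylation genes differed by transcript length, as given below.

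The ratios were also set against transcript length. Members had a median length of 1223 bases (median over the protein-coding transcripts of a gene in GENCODE vM21) and cytosolic ribosomal protein genes one of 757.5 bases. Of the 5 members higher in every class, 4 were shorter than 800 bases, at 440.5 to 692 bases. Mrps5, with log2 ratios of only 0.03 to 0.26, had 4481 bases. Under 800 bases were 9 of the 25 members lower in every class and 18 of all 48. Across members, Spearman's rho of ratio and length was -0.21 in COP-like, -0.23 in preOB-like, -0.27 in OB-like and -0.19 in MALP-like cells, whereas across all genes tested it was 0.05, 0.22, 0.12 and 0.13. In COP-like cells, all genes under 800 bases had a median log2 ratio of 0.05, which was -0.06 without members, cytosolic ribosomal protein genes and oxidative phosphorylation genes, and those from 800 to 1600 bases had one of -0.24. All genes over 3200 bases were at -0.15 in COP-like, 0.03 in preOB-like, -0.04 in OB-like and 0.02 in MALP-like cells. Members had medians of -0.15 in 20 genes and -0.38 in 30 genes of these lengths, and -0.39 and -0.36 in 15 genes from 1600 to 3200 bases and 11 longer ones. Within each of the 4 length ranges, some of which held fewer than 20 members, the median of the members was below that of all genes in 3 classes, and in MALP-like cells it was below in all but the range from 800 to 1600 bases (-0.09 against -0.18). The cytosolic ribosomal protein genes differed by length too, with 0.42 under 800 bases and -0.05 from 800 to 1600 bases in COP-like cells. Oxidative phosphorylation genes of these 2 lengths had 0.28 and -0.24 there, and -0.33 from 1600 to 3200 bases. Under 800 bases they had 0.12 in preOB-like, 0.29 in OB-like and 0.35 in MALP-like cells. From 800 to 1600 bases they had -0.36, -0.24 and -0.17 in these classes. UMIs of genes under 800 bases made up 20.8% of vehicle and 27.1% of teriparatide COP-like cells' UMIs, and 15.9% and 19.7% in MALP-like cells. The part of transcript length or of library preparation in these ratios was not tested.

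**Figure D5:**
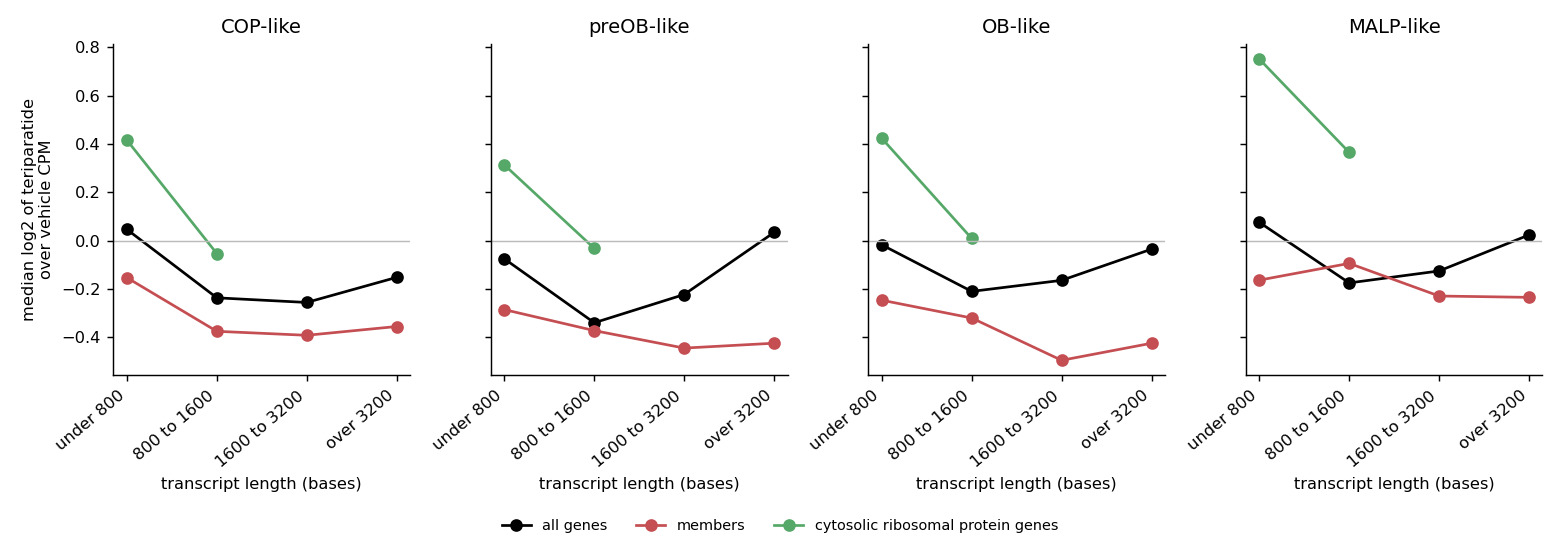
The median log2 ratio (teriparatide over vehicle) by transcript length for all genes tested (black), members (red) and cytosolic ribosomal protein genes (green, shown where at least 5 genes were tested), 1 panel per mesenchymal class. Genes under 800 bases had higher medians than those from 800 to 1600 bases for all genes in each class (0.05 against -0.24 in COP-like cells), and the red line lies below the black one at all points but one.

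Sex of the cells moved with the libraries as well. In male cells alone, the median log2 ratio of the members was -0.39 in COP-like, -0.36 in preOB-like, -0.26 in OB-like and -0.17 in MALP-like cells. In female cells it was 0.24, -0.13, -0.22 and 0.02. The female values rest on 9 vehicle and 25 teriparatide COP-like cells, and on 5 to 7 teriparatide cells in each other class. In COP-like cells, the summed level was 4244 CPM (4142 to 4349) in male and 3839 CPM (3600 to 4089) in female vehicle cells, and 3473 CPM (3430.1 to 3516) in male and 4712 CPM (4567 to 4860) in female teriparatide cells. The level of COP-like cells was lower with teriparatide in male and higher in female cells. Mrpl52 was higher in the teriparatide library in both, at 137 and 223 CPM in male and 159 and 327 CPM in female COP-like cells.

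Cells above the limit on mitochondrial UMIs, which were left out, had a lower share of members among all UMIs, a total that includes the mitochondrial UMIs. In the vehicle preOB-like cells, the sum was 5171 CPM in 42 cells with at most 10% mitochondrial UMIs, 4244 CPM in 75 cells with 10 to 20% and 2804 CPM in 51 cells above 20%, and it was 5455, 4928 and 3939 CPM with the UMIs of the mitochondrial genome taken out of the total. The OB-like cells of the teriparatide library had 2989, 2147 and 1905 CPM, and 3096, 2502 and 2729 CPM with the mitochondrial UMIs taken out. On that scale the vehicle MALP-like cells had 5238 CPM (5135 to 5344) with at most 10% mitochondrial UMIs. The 7 such cells above 20% had 5067 CPM (4118 to 6169), so that the intervals overlapped. The limit removed 55.8% of the barcodes with vehicle and 40.2% with teriparatide. Without any limit, the log2 ratio of the summed level was -0.22 in COP-like, -0.19 in preOB-like, -0.24 in OB-like and -0.05 in MALP-like cells.

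Cycling cells were compared within the COP-like class, where 10 vehicle and 32 teriparatide cells held a UMI of Mki67 or Top2a. The summed level was 4536 CPM (4292 to 4790.1) in cycling and 4125 CPM (4026 to 4226) in other cells of the vehicle library (log2 ratio 0.14, 0.05 to 0.22). In the teriparatide library it was 3742 CPM (3628 to 3858) and 3587 CPM (3544 to 3631), a log2 ratio of 0.06 (0.01 to 0.11). With cycling cells defined by 2 UMIs of 5 cycling genes, the ratios were 0.07 (-0.02 to 0.16) with vehicle, where the interval included 0, and 0.16 (0.10 to 0.21) with teriparatide. Of the members tested, 40 of 59 (all genes 48.7%) and 40 of 76 (all genes 51.1%) were higher in cycling cells, the latter near the share of all genes, with medians of 0.09 and 0.04 beside -0.01 and 0.01 over all genes. Mrps25 and Mrpl14, picked after their values were seen, were the members whose intervals lay above 0 in both libraries, with log2 ratios of 1.00 and 0.62 for Mrps25 and 0.71 and 0.51 for Mrpl14. The vehicle values rest on 20 and 28 UMIs in the 10 cycling cells. With teriparatide, the intervals of Mrps28 (-0.45) and Mrps2 (-2.06, 2 UMIs in cycling cells) lay below 0. The share of all genes with such intervals is not given here. Cytosolic ribosomal protein genes were not higher in cycling cells, at 154099 against 178852 CPM (vehicle) and 210780 against 215691 CPM (teriparatide). The cycling cells held a median of 31210 and 35888 UMIs, against 27957 and 29777 in the others.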

How the data were processed

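Per the labels and the methods of the study, the authors ran Cell Ranger 2.1.0 against mm10. The headers of the deposited matrices carry a different software version, and which version gave the counts is not known. The deposited values are raw UMI counts, in 1 matrix per library, which sum to 10567335 for vehicle and 26270041 for teriparatide. Whether mice were pooled before capture is not stated. Following the study, cells with 200 to 6000 genes and at most 10% mitochondrial UMIs were kept. Cells were gated by the highest mean z-score of marker genes (at least 0.5 and 0.2 above the next), and mesenchymal cells with Ptprc were left out. Counts were summed per class and library. Ratios used genes with at least 50 UMIs. With 1 library per condition there was no test. Members named were those with the highest and lowest levels, class differences and ratios by a fixed ranking, plus Mrps18a to Mrps18c, Mrps30, Mrps36 and Mrpl12. Members and lists were chosen with earlier results of these data known. Positions matched all 77 gene IDs to GENCODE vM21. Scrublet (scanpy 1.11.5) called 1 doublet per library, so it removed nearly nothing; cells with the highest scores were left out as an alternative. Clusters came from Seurat 5.3.0. Interval code was tested on simulated counts. Python 3.11.15 and scipy 1.17.1 were used.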

Additional observations from a re-analysis of the deposited data

How the results depend on the processing

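Of the recomputed values, 150 stayed near the reported ones, 52 moved further and 15 changed sign. Near meant a difference of less than the distance from the middle to the end of the interval for log2 ratios, and within 1.5 times for counts of members. The cause of these moves was not tested. No paired analysis was possible because each condition has 1 library, which also left no replicate to leave out. Classes are given in the order COP-like, preOB-like, OB-like, MALP-like. Against reported medians of -0.35, -0.32, -0.32 and -0.19, scaling by the median ratio of all genes gave -0.15, -0.17, -0.20 and -0.12, and leaving out the 50 highest genes and the mitochondrial genome gave -0.23, -0.24 and -0.26 in the first 3. Members past 1.5-fold numbered 18 of 76, 14 of 49, 17 of 67 and 7 of 72. These scales gave 11 and 10, and 11 and 11, in COP-like and OB-like cells. The counts below rest on other numbers of members tested and are not set beside the shares of all genes. Cells thinned to 3000 UMIs gave -0.14, 0.31, -0.019 and -0.083 over 26, 1, 12 and 28 members, with 8, 0 and 2 past the fold in the first 3, and differences from all genes of 0.051, 0.40, 0.043 and 0.0045 in place of -0.15, -0.17, -0.20 and -0.12, while the log2 ratio of the summed level, at -0.21, -0.36, -0.20 and -0.02, moved little. At a minimum of 200 UMIs preOB-like cells gave 0.48 over 3 members (difference from all genes 0.61, 1 past the fold). MALP-like cells gave -0.082 (0.023, 2 of 32 past the fold) and OB-like cells 5 of 32 past the fold. A minimum of 20 gave 25 of 72 in preOB-like cells. Male cells gave -0.39 and -0.26 in COP-like and OB-like cells, with 9 of 25 preOB-like and 7 of 56 OB-like members past the fold. Female cells gave 0.24, -0.13, -0.22 and 0.017, with differences from all genes of 0.27 in COP-like and 0.070 in MALP-like cells. In these cells 2 of 8 preOB-like and 17 of 41 MALP-like members were past the fold, and the cycling ratio was -0.18 with teriparatide. Clusters in place of the gate gave -0.44 in preOB-like cells, a small less large difference of 0.070 in MALP-like cells (-0.05 by the gate) and a mitochondria-specific less bacterial difference of -0.22 in OB-like cells (-0.12 by the gate). Without cells near the gate limit, OB-like cells gave -0.39 and preOB-like cells 9 of 40 past the fold. A mitochondrial limit of 20% gave -0.14 in MALP-like cells. The log2 ratio of the COP-like sum to the mean of the other 3 classes, -0.13 with vehicle and -0.17 with teriparatide, was -0.083 and -0.13 at that limit, -0.04 and -0.11 without one, and -0.27 and 0.13 in female cells; with teriparatide it was -0.22 in male cells, -0.11 on the scale without the highest genes and -0.13 after thinning. At 2 UMIs of 5 cycling genes the cycling ratio was 0.16 with teriparatide and 0.07 (-0.02 to 0.16) with vehicle. Leaving out cells with the highest doublet scores or with Col10a1 above 1% turned no direction. Depth limits preOB-like cells most, where 49 of 77 members reached 50 UMIs.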
